A study of Mus musculus with 4 samples.

Results

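The 10 genes described here belong to bone morphogenetic protein (BMP) signalling and were followed across 4 mouse arrays. They are the ligand genes Bmp2, Bmp4 and Bmp7, the secreted antagonist genes Sostdc1, Grem1 and Nog, the inhibitory SMAD gene Smad6, and the target genes Id1, Id2 and Id3. They were picked by gene symbol. Each of the 10 has 1 probe set that the platform annotation assigns to it alone, among 22180 genes with such a probe set.

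All 4 samples come from strain Black6-129X1/SvJ, pooled from males and females, and were grown in embryonic stem cell medium with 20% fetal bovine serum. The starting cells, reprogrammable mouse embryonic fibroblasts that switch on reprogramming factors in doxycycline, were given doxycycline and ascorbic acid. Both day 6 samples are whole cultures taken on day 6 of doxycycline. One carries a knockdown of Firefly luciferase, which mouse cells do not encode, and the other is labelled as a Sumo2 knockdown. The remaining 2 samples are stable clones of induced pluripotent stem cells (iPSC) that grew out of Sumo2 knockdown fibroblasts, named the 38 h and the 10 day line here. The labels do not say what 38 h and 10 day count from, how the knockdown was made, or whether a line is 1 clone. Each condition has 1 array, so the 4 arrays hold no replicate of any condition, and no control iPSC line is among them. In bulk samples, fewer cells of a type and less RNA per cell cannot be told apart.

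BMP ligands are secreted dimers of the TGF-beta family. They bind type I and type II serine/threonine kinase receptors, which phosphorylate SMAD1, SMAD5 and SMAD9; these join SMAD4 and switch on target genes, among them the Id genes and Smad6. Extracellular antagonists hold ligands away from the receptors, and SMAD6 and SMAD7 damp the signal inside the cell. In mouse embryonic stem cells BMP4 with leukaemia inhibitory factor is known to sustain self-renewal through Id proteins, and in fibroblast reprogramming BMP signals are known for helping the early mesenchymal to epithelial transition.

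Promoters of members that moved are shown because SMAD complexes bind DNA at short motifs near such genes. RefSeq promoter windows on build GRCm38.p6 were at hand for 5 of the 10 members, namely Bmp4, Grem1, Id2, Id3 and Smad6. The 250 bases upstream of the start are printed 5′ to 3′ on the gene's strand for the 4 that passed the test described further on, Id2 and Id3 (lower in iPSC) and Bmp4 and Grem1 (higher in iPSC). Capitals mark the GC-rich SMAD element GGCGCC and the SMAD box GTCT, or AGAC where the box lies on the other strand.
Id2, chr12:25096093-25096342, minus strand: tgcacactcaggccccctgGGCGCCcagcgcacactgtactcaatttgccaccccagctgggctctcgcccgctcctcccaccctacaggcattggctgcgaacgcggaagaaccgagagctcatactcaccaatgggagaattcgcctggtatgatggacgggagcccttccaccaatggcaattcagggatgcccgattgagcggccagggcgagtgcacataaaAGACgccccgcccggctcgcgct
Id3, chr4:136143572-136143821, plus strand: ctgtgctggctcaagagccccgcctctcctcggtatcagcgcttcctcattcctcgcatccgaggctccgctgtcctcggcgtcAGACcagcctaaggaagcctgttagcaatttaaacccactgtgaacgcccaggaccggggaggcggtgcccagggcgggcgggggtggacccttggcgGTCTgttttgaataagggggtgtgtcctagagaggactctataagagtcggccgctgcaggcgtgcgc
Bmp4, chr14:46390670-46390919, minus strand: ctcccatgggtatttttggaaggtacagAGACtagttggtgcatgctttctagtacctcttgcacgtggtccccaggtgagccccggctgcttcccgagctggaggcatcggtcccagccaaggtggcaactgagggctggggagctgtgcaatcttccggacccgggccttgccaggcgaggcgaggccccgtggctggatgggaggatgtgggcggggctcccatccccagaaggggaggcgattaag
Grem1, chr2:113758649-113758898, minus strand: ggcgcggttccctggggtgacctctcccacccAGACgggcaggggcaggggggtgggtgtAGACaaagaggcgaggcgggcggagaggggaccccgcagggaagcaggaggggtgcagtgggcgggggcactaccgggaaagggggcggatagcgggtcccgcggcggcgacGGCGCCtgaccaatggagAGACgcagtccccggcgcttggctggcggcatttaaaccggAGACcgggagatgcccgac

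GGCGCC was found once each in the Id2 and Grem1 windows and not in those of Id3, Bmp4 and Smad6. It occurs in 9.59% of all 32851 promoter windows of that length. GTCT on either strand was found once in Id2, Bmp4 and Smad6, in 2 places in Id3 and in 4 in Grem1, and 82.9% of all windows hold it, so its presence sets no gene apart. A spaced pair of GGCGNC, then 5 bases, then GTCT was in none of the 5 member windows and in 0.192% of all. The E-box CANNTG, which basic helix-loop-helix proteins bind, was found once in Id2, in 3 places in Bmp4 and not in Id3, Grem1 or Smad6, against 66.2% of all windows. These matches describe letters in a short window and say nothing of which sites were used.

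The arrays were set against their labels first. Sumo2 read 10.65 in the Firefly culture, 10.56 in the culture labelled Sumo2 knockdown, 11.40 in the 38 h line and 11.07 in the 10 day line on the log2 scale. Its transcript therefore does not show the knockdown, and directions between the day 6 cultures rest on the label. Of 8 pluripotency markers 7 were measured and all of those rose from day 6 to iPSC, with Sox2 at 6.10 and 6.55 at day 6 against 12.03 and 11.96 in the lines. Dppa5a lay below the measuring floor, the median of the single-gene probe sets of an array (6.64 to 6.67), on every array. Fibroblast markers were present in both day 6 cultures, 7 of 8 at or above the floor, with Lum the exception, and 7 and 6 of 8 were also at or above it in the 38 h and 10 day lines. Their mean log2 level went from 9.29 (Firefly) and 8.79 (labelled Sumo2 knockdown) to 8.62 (38 h) and 8.26 (10 day). Of the 7 measured, 2 fell (Thy1 and Col1a2), 1 rose and 4 did not pass. In that order, Col1a1 read 10.74, 10.13, 10.64 and 10.38, and Col3a1 read 8.28, 7.71, 8.23 and 7.90. Neither of them passed. Col1a2 read 10.90, 10.46, 10.21 and 9.87 (-0.64, limma adjusted p = 0.0399). In the same order Thy1 read 11.71, 11.23, 8.85 and 8.69, a fall of 6.49-fold. Fbln2, the 1 that rose, read 10.23, 9.67, 10.71 and 10.59. Dcn read 7.95, 7.07, 6.82 and 5.16, below the floor in the 10 day line, and did not pass. The iPSC arrays thus kept fibroblast collagen signal, though less of Col1a2, and had far less of Thy1. The part of fibroblast signal in any BMP result was not tested. Of 6 epithelial markers 4 rose, and their mean log2 level was 7.41, 8.70, 9.48 and 9.73 in the same order. Of 5 macrophage markers, Ptprc, Csf1r and Adgre1 lay below the floor on all arrays, while the remaining 2, Cd68 and Lyz2 (named after their values were seen), were measured and rose (2.06-fold and 2.36-fold). The 5 markers had a mean log2 level of 6.37 and 6.31 at day 6 and 6.76 and 6.82 in the lines, and their part in the BMP results was not tested.

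The members' log2 expression on each array is plotted below with the floor.

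**Figure D1:**
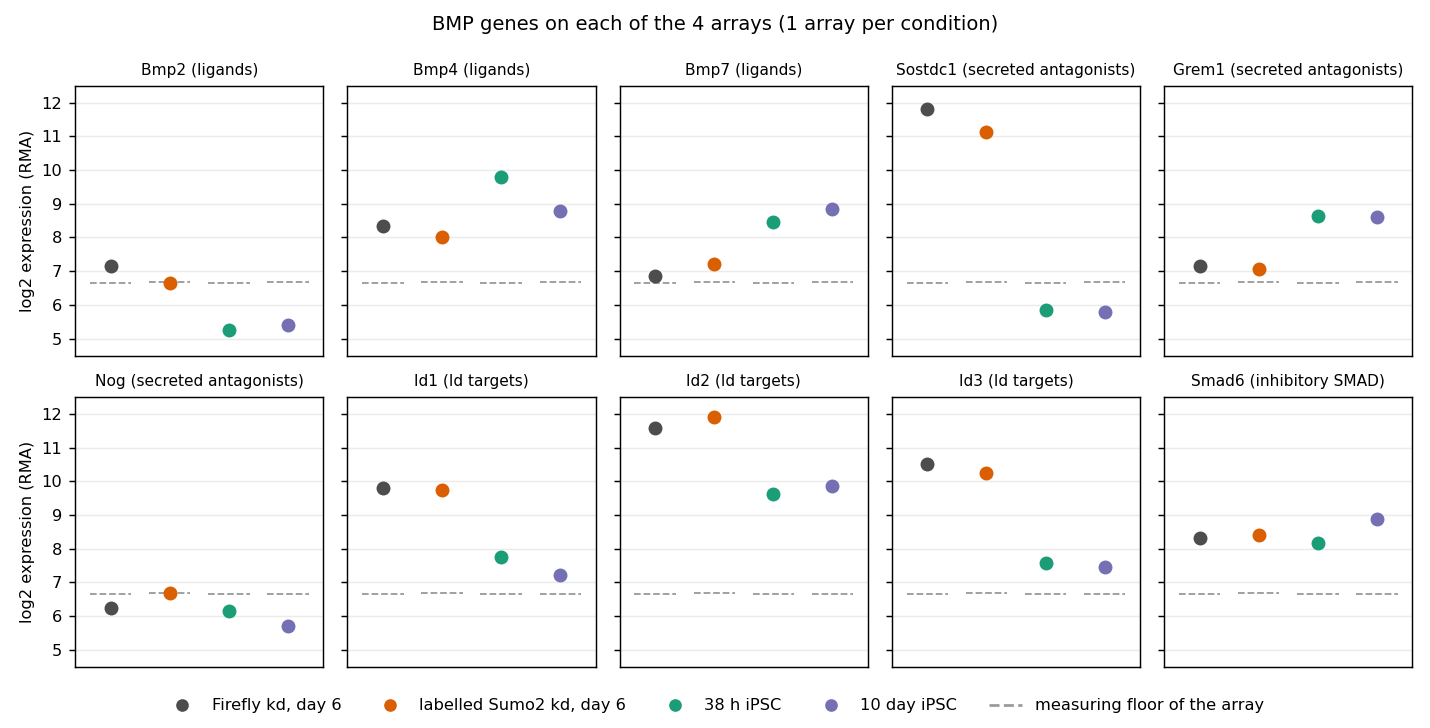
Log2 RMA expression (vertical axis, arbitrary brightness units) of each of the 10 genes on the 4 arrays, 1 point per array in the order Firefly, labelled Sumo2 knockdown, 38 h line, 10 day line; dashes mark each array's measuring floor. Id1, Id2, Id3 and Sostdc1 sit lower on both iPSC arrays than on both day 6 arrays, Bmp4, Bmp7 and Grem1 sit higher, and Smad6 overlaps.

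Between the cell states, 5 members fell from day 6 cultures to iPSC (Sostdc1, Id1, Id2, Id3 and Bmp2), 3 rose (Bmp7, Grem1 and Bmp4), and Nog and Smad6 did not pass. The test was limma on the mean of both iPSC arrays against the mean of both day 6 arrays, at a Benjamini-Hochberg adjusted p under 0.05 over 12735 measured genes. A gene was measured when at least 1 array reached the floor, which all 10 members did, though Bmp2 and Nog did so on 1 array each. These cell states differ across much of the transcriptome: 46.8% of measured genes passed, 17.8% lower and 29.0% higher in iPSC. Beside these shares, 5 of 10 members were lower and 3 of 10 higher. Of the 5, Sostdc1 and Bmp2 passed the filter only through day 6 arrays, where they were high. With the floor required on all 4 arrays, 3 of 7 members fell and 3 rose, beside 1743 and 2952 of 9927 genes. The members were chosen with earlier results known, so no excess is read from these counts. As read, arrays of the 2 states did not overlap for 9 of 10 members, all but Smad6, and for 79.5% of measured genes. For Nog and Bmp2 the nearest arrays of both states lay below the floor, where values have no order, so that their separation is not an observation. The members' median log2 difference was -1.05, beside 0.15 for all measured genes, but it is the midpoint of the values of Bmp2 and Nog. It therefore rests on signal below the floor. With the floor required on all 4 arrays the median was 0.15 over 7 members, beside 0.16 over 9927 genes. Scaling bears on these figures: 62.0% of all calls were upward with the deposited values, and 42.1% after the arrays were shifted to 1 upper quartile, which puts the median of all genes at -0.07. The pairs' spread holds the knockdown label and the difference between lines, not replicate error. An exact permutation test of 2 arrays against 2 cannot go below a two-sided p of 0.333.

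**Figure D2:**
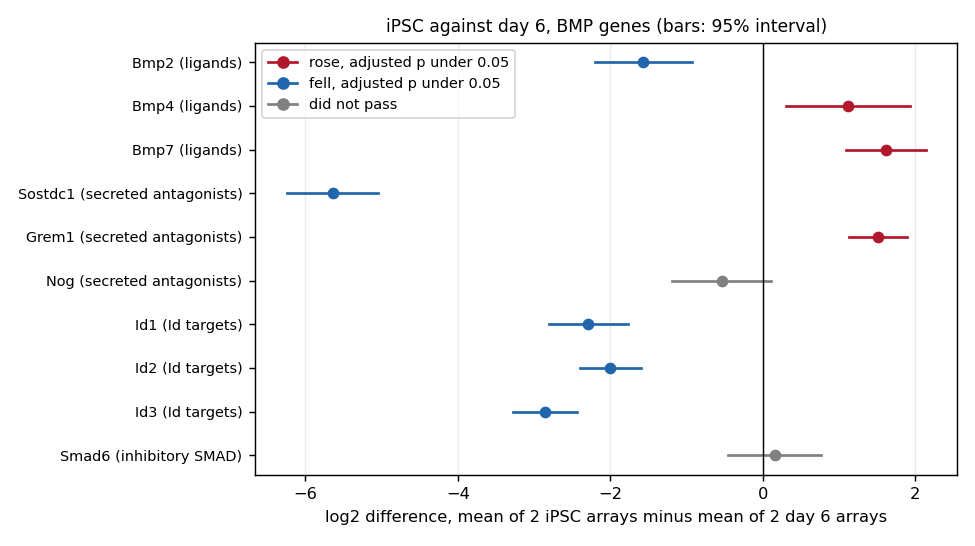
Log2 difference between the mean of both iPSC arrays and the mean of both day 6 arrays for the 10 genes, with the 95% interval from limma; blue fell, red rose, grey did not pass. Sostdc1 lies at -5.64, the Id genes between -2.86 and -1.999, and the intervals of Nog and Smad6 span 0.

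The ligand genes went different ways. Bmp4, whose product is the BMP most used in embryonic stem cell culture, read 8.35 in the Firefly culture, 8.01 in the culture labelled Sumo2 knockdown, 9.80 in the 38 h line and 8.79 in the 10 day line. It was higher on both iPSC arrays, but the nearest arrays of the 2 states stood only 0.44 apart. Bmp4 rose by 1.12 on the log2 scale (2.17-fold, SE 0.34, 95% interval 0.31 to 1.93, limma adjusted p = 0.0346). That call is fragile: it was lost after cyclic loess (0.93, adjusted p = 0.0655), after the upper quartile shift (0.89, adjusted p = 0.0731), and without the Firefly array (1.29, adjusted p = 0.110), without the array labelled Sumo2 knockdown (0.95, adjusted p = 0.171) or without the 38 h array (0.61, adjusted p = 0.0836).

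Bmp7, a ligand of the subgroup that also holds Bmp5 and Bmp6, read 6.86 (Firefly), 7.22 (labelled Sumo2 knockdown), 8.46 (38 h) and 8.86 (10 day). Both iPSC arrays lay above both day 6 arrays, the closest 1.23 apart. Bmp7 rose by 1.61 (3.06-fold, SE 0.22, 95% interval 1.09 to 2.13, limma adjusted p = 0.00217), and it passed in all 10 alternatives, at 1.38 to 1.81.

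Bmp2, the close relative of Bmp4, read 7.15, 6.65, 5.26 and 5.41 in the same order of arrays. Only the Firefly array reached the floor. As read it fell by 1.57 (SE 0.26, 95% interval -2.20 to -0.93, limma adjusted p = 0.00464), but counted from the floor, with lower values set to it, the fall is bounded at no more than "at least 1.19-fold". Its size in iPSC therefore rests on background signal.

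Among the antagonist genes, Sostdc1 and Grem1 went opposite ways. Sostdc1 encodes a secreted cystine-knot protein that binds BMPs and also acts on Wnt co-receptors. It read 11.80 (Firefly) and 11.11 (labelled Sumo2 knockdown) in the day 6 cultures and 5.84 and 5.79 in the 38 h and 10 day lines, so it was far above the floor at day 6 and below it in both lines. The gap between the nearest arrays was 5.28. Sostdc1 fell at least 27.7-fold counted from the floor (as read -5.64, SE 0.25, limma adjusted p = 0.000105), and its difference ranked 2nd lowest of all 12735 genes. Leaving out any 1 array kept it between -5.99 and -5.30.

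Grem1 encodes gremlin, an antagonist that binds BMP2, BMP4 and BMP7 and that fibroblasts are known to make. It read 7.16 and 7.07 at day 6 and 8.63 and 8.62 in the lines, so each pair agreed closely and the pairs were 1.46 apart at their nearest. Grem1 rose by 1.51 (2.85-fold, SE 0.16, 95% interval 1.13 to 1.89, limma adjusted p = 0.000961), at 1.28 to 1.55 in all 10 alternatives. Fibroblast markers moved in mixed directions beside it, as given above (2 down, 1 up, 4 not past the test), and their part in the result was not tested. Nog, which encodes the antagonist noggin, read 6.25, 6.70, 6.14 and 5.72, at or above the floor only in the culture labelled Sumo2 knockdown and there by a hair. Its difference of -0.54 did not pass (95% interval -1.20 to 0.11, limma adjusted p = 0.144), and counted from the floor it was -0.01.

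Smad6, an inhibitory SMAD that is itself a BMP target, was level with the spread. It read 8.33 (Firefly), 8.41 (labelled Sumo2 knockdown), 8.17 (38 h) and 8.88 (10 day), so the day 6 values lay between those of the lines. The difference of 0.15 did not pass (SE 0.25, 95% interval -0.46 to 0.76, limma adjusted p = 0.634) and its sign changes with the scaling. The interval leaves room for a difference in either direction.

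All 3 Id members fell. Id proteins are helix-loop-helix factors without a DNA-binding region, and they hold back E proteins such as those encoded by Tcf3, Tcf4 and Tcf12. Id1 read 9.80 and 9.75 in the Firefly culture and the culture labelled Sumo2 knockdown, and 7.75 and 7.22 in the 38 h and 10 day lines. It fell 4.90-fold (-2.29, SE 0.22, limma adjusted p = 0.000724), to 20.4% of the day 6 level.

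Id2 read 11.57 and 11.90 at day 6 and 9.61 and 9.86 in the lines. It stayed well above the floor in iPSC while it fell 3.998-fold (-1.999, SE 0.17, limma adjusted p = 0.000517). Id3 read 10.51 and 10.25 at day 6 and 7.59 and 7.46 in the lines, a gap of 2.66 between the nearest arrays. It fell 7.24-fold (-2.86, SE 0.17, limma adjusted p = 0.000235) and ranked 102nd lowest of the measured genes, with Id1 at 220 and Id2 at 322. All 3 passed in each of the 10 alternatives, at -2.56 to -2.03 for Id1, -2.23 to -1.84 for Id2 and -3.09 to -2.73 for Id3. None of the 3 lay below the floor on any array. The Id2 and Id3 promoter windows printed above share no GGCGCC element, since Id3 has none.

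The remaining BMP pathway was described with 56 genes, of which 51 have a probe set of their own and 38 were measured. Of those 38, 16 fell, 5 rose and 17 did not pass. That makes 55.3% called beside 46.8% of all genes, with a median of -0.37. Downward calls were 16 of 38, beside 17.8% of all genes. They numbered 19 after cyclic loess, beside 21.2% of all genes at that scaling, and 21 after the upper quartile shift, beside 26.5%. Of the 16, Smad9, Sost and Gdf2 lay below the floor in both lines and passed the filter only through day 6 arrays. With the floor required on all 4 arrays, 12 of 31 fell and 6 rose, with a median of -0.32. In that setting 17.6% of 9927 genes fell. The list was chosen with earlier results known, so no excess is read from these counts. Of the 21 called genes, 15 (11 down and 4 up) were called under each scaling, filter, variance and leave-one-out alternative that tested them, and 12 genes pass when a 2-fold size is required as well. Of the 17 genes that did not pass, 9 passed under at least 1 alternative.

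**Figure D3:**
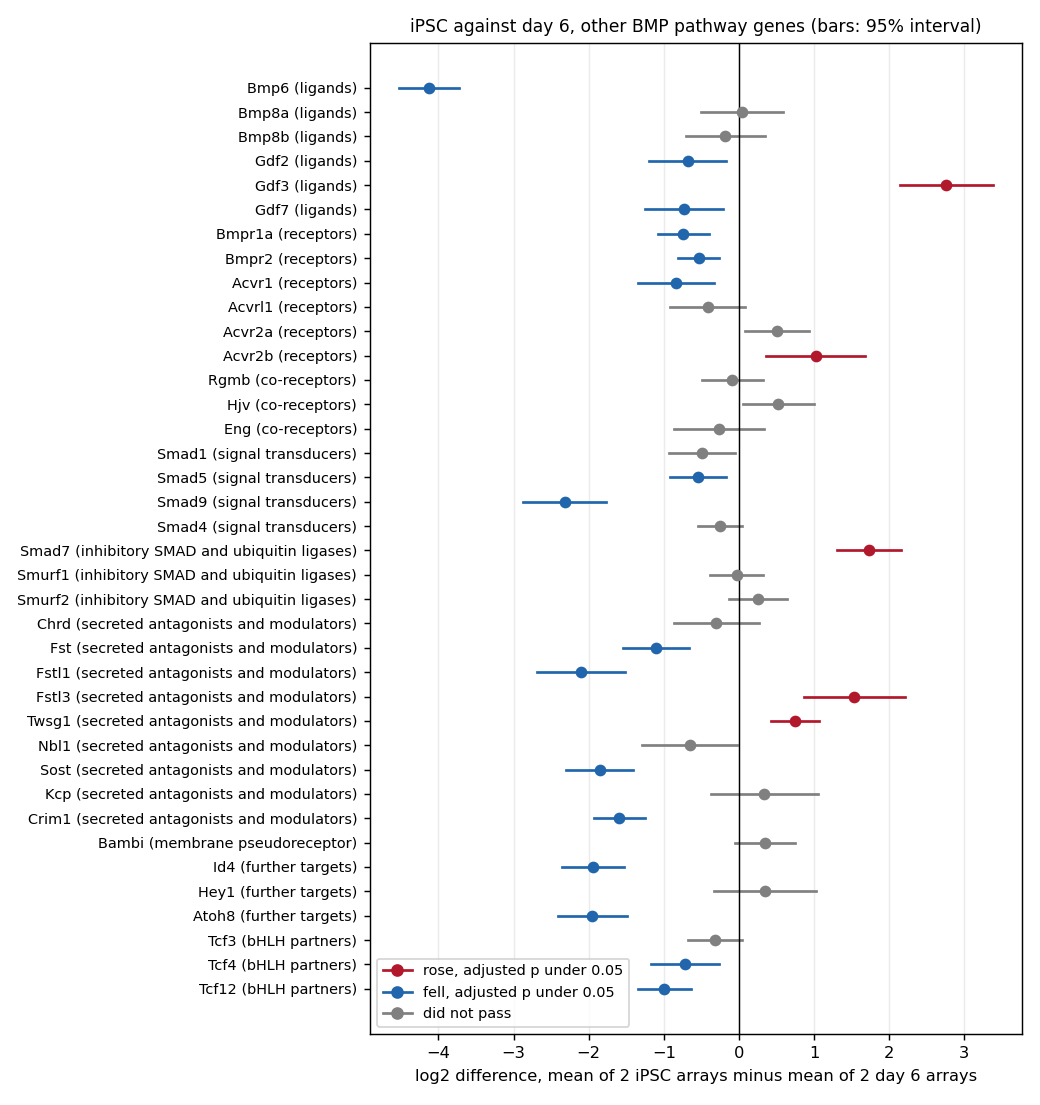
Log2 difference between the mean of both iPSC arrays and the mean of both day 6 arrays for the 38 measured genes of the remaining pathway, by role, with the 95% interval from limma; blue fell, red rose, grey did not pass. Bmp6 at -4.12 and Gdf3 at 2.76 lie at the ends, and the signal transducer Smad9, the antagonists Fstl1 and Sost and the targets Id4 and Atoh8 lie near -2.

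Of the other ligand genes, 6 of 12 were measured, 3 fell and 1 rose. Bmp6, a ligand known from the control of iron in the liver, read 11.35 (Firefly), 11.26 (labelled Sumo2 knockdown), 7.27 (38 h) and 7.09 (10 day), and fell 17.4-fold (-4.12, SE 0.16, limma adjusted p = 0.000105), a larger difference than that of Bmp2, Bmp4 or Bmp7. Gdf3, a TGF-beta family ligand expressed in pluripotent cells, read 6.90, 7.61, 9.92 and 10.10 and rose 6.77-fold (2.76, SE 0.26, limma adjusted p = 0.000699). Gdf2 (-0.68) and Gdf7 (-0.73) also passed downward, but Gdf2 was below the floor in both lines, at least 1.02-fold counted from it. Gdf7 was below the floor in the 10 day line, and its difference was -0.69 counted from it. Both calls were lost without the Firefly array, without the array labelled Sumo2 knockdown and without the 10 day array (adjusted p up to 0.115 for Gdf2 and 0.160 for Gdf7), and that of Gdf2 also after cyclic loess.

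Receptor genes shifted by smaller steps. The type I receptor gene Bmpr1a fell by 0.74 (adjusted p = 0.00704), from 10.54 and 10.57 at day 6 to 9.87 and 9.76 in the lines. The type II receptor gene Bmpr2 fell by 0.54 (adjusted p = 0.00985), and the type I receptor gene Acvr1 fell by 0.84 (adjusted p = 0.0182). Acvr2b, a type II receptor shared with activin and Nodal, rose by 1.02 (adjusted p = 0.0233), with 7.09, 7.88, 8.46 and 8.55 on the arrays. The Acvr1 call was lost without the Firefly array (adjusted p up to 0.114) or the 10 day array, and that of Acvr2b after the upper quartile shift and without the Firefly array (adjusted p up to 0.0946). Acvr2a (0.51) and Acvrl1 (-0.42) did not pass, nor did any of the 3 measured co-receptor genes, Hjv (0.52), Eng (-0.26) and Rgmb (-0.09). Acvrl1 passed as lower after the upper quartile shift, and Acvr2a as higher with the floor required on all 4 arrays. Hjv passed as higher with no filter and with no variance trend. The Eng difference was -0.63 without the 10 day array and 0.11 without the 38 h array, so its direction depends on the line. Bmpr1b was below the floor on all arrays.

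Inside the cell, Smad9, which encodes the least studied of the BMP-regulated SMADs, read 8.02 and 7.73 at day 6 and 5.75 and 5.36 in the lines. It fell at least 2.32-fold counted from the floor (as read -2.32, limma adjusted p = 0.000823). Smad5 fell by 0.55 (limma adjusted p = 0.0292), a call lost without any 1 of the 4 arrays and without the filter on low values. Smad1 (-0.49) and the shared partner Smad4 (-0.25) did not pass with the deposited values. Both passed as lower after cyclic loess and after the upper quartile shift. Smad7, the inhibitory SMAD that acts on both TGF-beta and BMP receptors, read 8.93, 8.74, 10.72 and 10.41 and rose 3.31-fold (1.73, SE 0.18, limma adjusted p = 0.000956), where Smad6 did not pass. The ubiquitin ligase genes Smurf1 (-0.03) and Smurf2 (0.25) did not pass.

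Of 15 further antagonist and modulator genes 9 were measured, and 4 fell while 2 rose. Fstl1, a secreted glycoprotein gene of mesenchymal cells, fell 4.30-fold (11.94 and 11.91 at day 6, 10.20 and 9.44 in the lines). Sost, which encodes sclerostin and is the closest relative of Sostdc1, read 8.01, 7.78, 6.00 and 6.08 and fell at least 2.35-fold counted from the floor (as read -1.85). The membrane-bound modulator gene Crim1 fell 3.02-fold and the activin antagonist gene Fst 2.14-fold. Fstl3, another activin antagonist gene, rose 2.89-fold and Twsg1, which can aid or oppose BMPs, 1.68-fold. Limma adjusted p ran from 0.000620 to 0.00623 over these 6 genes. Chrd (-0.30), Nbl1 (-0.65) and Kcp (0.33) did not pass, nor did the pseudoreceptor gene Bambi (0.34). Among these, Nbl1 passed as lower after cyclic loess and after the upper quartile shift.

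The further targets matched the Id genes in part. Id4, the fourth Id gene, read 8.93 and 8.93 at day 6 and 6.85 and 7.12 in the lines and fell 3.85-fold (-1.95, SE 0.17, limma adjusted p = 0.000610). Atoh8, a helix-loop-helix factor gene that BMP signals induce in other cells, fell 3.87-fold (-1.95, limma adjusted p = 0.000821). Hey1 (0.35) did not pass, and Msx2 and Dlx5 were below the floor on all arrays. The Hey1 difference was 0.73 without the 38 h array and -0.04 without the 10 day array. Of the E protein genes whose products Id proteins bind, Tcf12 fell by 0.99 (limma adjusted p = 0.00315) and Tcf4 fell by 0.72 (limma adjusted p = 0.0219). Tcf3 (-0.32) did not pass with the deposited values, but passed as lower after cyclic loess and after the upper quartile shift. The Tcf4 call was lost without the Firefly array, without the array labelled Sumo2 knockdown and without the 10 day array (adjusted p up to 0.118).

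Between the day 6 cultures, 0 of 10 members were 2-fold apart, as were 1.18% of 11740 genes measured there. With 1 array per culture this comparison has no test and no replicate check. At 1.5-fold 1 member was apart, Sostdc1, lower by 0.69 on the log2 scale in the culture labelled Sumo2 knockdown (62.2% of the Firefly level), beside 6.90% of genes. Of the rest, Bmp2 (-0.51) and Bmp4 (-0.34) were lower there and Nog (0.44, or 0.05 counted from the floor) and Bmp7 (0.36) higher. The Id genes did not go 1 way: Id2 was higher by 0.32, Id3 lower by 0.26 and Id1 nearly level at -0.05. Grem1 (-0.08) and Smad6 (0.08) were nearly level as well. The log2 differences of all genes in this pair had an SD of 0.33, which Sostdc1, Bmp2, Nog, Bmp7 and, barely, Bmp4 exceeded in size. Fibroblast markers were lower in the culture labelled Sumo2 knockdown by a median of 0.56, and the 4 measured pluripotency markers higher by a median of 2.52. Their part in the differences of Sostdc1 and the other members was not tested.

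**Figure D4:**
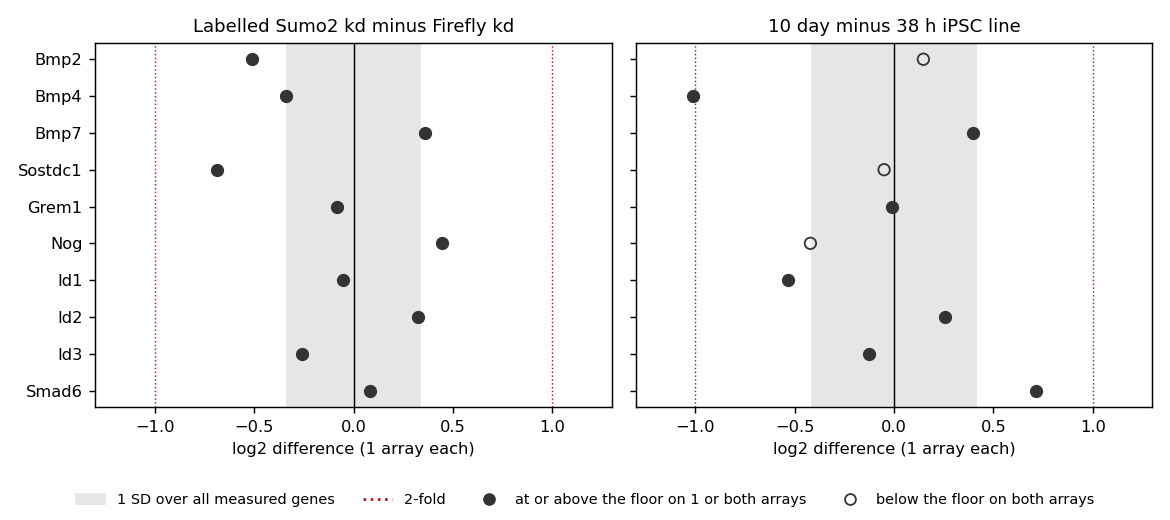
Log2 difference within each pair of arrays, labelled Sumo2 knockdown minus Firefly (left) and 10 day minus 38 h line (right), for the 10 genes; the grey band is 1 SD over all measured genes (0.33 and 0.41), dotted lines mark 2-fold, and open circles were below the floor on both arrays. Only Bmp4 reaches a dotted line, between the iPSC lines at -1.01.

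Between the iPSC lines, 1 of the 7 members measured there was 2-fold apart, beside 3.22% of 11754 genes. Bmp4 was lower by 1.01 in the 10 day line, at 49.5% of the 38 h level, and after cyclic loess it no longer reached 2-fold. At 1.5-fold Smad6 joined it, higher by 0.71 in the 10 day line, beside 10.5% of genes. Id1 was lower by 0.53 in the 10 day line, Bmp7 higher by 0.40 and Id2 higher by 0.25, while Id3 (-0.13) and Grem1 (-0.01) were close. The SD over all genes was 0.41, so among these only Bmp4, Smad6 and Id1 lay beyond 1 SD. Markers of primitive endoderm, an early extraembryonic tissue, were also higher in the 38 h line. All 5 measured ones lay higher there, Gata6 at 8.41 against 7.12 and Dab2 at 9.69 against 8.05, and Sox17 was below the floor on all arrays. The mean log2 level over 6 markers was 7.78 against 6.83. Dab2 read higher still at day 6, 11.07 (Firefly) and 10.68 (labelled Sumo2 knockdown), so here it is not particular to that tissue. The fibroblast list also had a higher mean level in the 38 h line, 8.62 against 8.26. The part of either marker list in the Bmp4 difference was not tested, and no test is possible with 1 array per line.

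Genes with the most similar pattern were found by the Euclidean distance between mean-centred log2 values over the 4 arrays, among 11810 named genes. With 4 arrays and most of the range between the cell states, many genes come close. Nearest to Id1 were Prrx1 (distance 0.07), Slc39a14 and Zhx2, to Id2 Ebf3 (0.09), Podxl and Fgfbp1, and to Id3 Cyp1b1 (0.05), Acsbg1 and Nfia. Among the members themselves Id1 and Id3 lay 0.65 apart and Id1 and Id2 0.68, each farther than these neighbours. Bmp7 and Grem1 were the nearest members of all at 0.44. Nearest to Bmp4 were Csrnp3 (0.11), Pdgfc and Phyh, to Bmp7 Fancm (0.07), Fam78a and Ribc1, and to Grem1 Donson (0.03), Foxr2 and Rnf7. Bmp2 was closest to Adamtsl4 (0.05), Adamts17 and Scara5, but it reached the floor on only 1 array, so these matches rest largely on background signal. Other named neighbours also read below the floor on some arrays. In both lines these were Zhx2, Ebf3, Fgfbp1, Acsbg1, Nfia, Adamts17 and Scara5. In both day 6 cultures they were Csrnp3, Fam78a, Ribc1 and Foxr2, and Rnf7 was below it in the culture labelled Sumo2 knockdown. Those matches rest in part on background signal. Sostdc1 had no close match, with Aldh3a1 (0.68), Ano1 and Cd34 as the nearest. Of these, Aldh3a1 was below the floor in both lines and Ano1 in the 10 day line.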

How the data were processed

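RNA of 4 cultures was measured on 1 Affymetrix array each. The deposited values are log2 expression per probe set. The authors made them with RMA (Expression Console from Affymetrix), as the submitters' processing notes list. Versions and a genome build are not given in the sources used here. Base 2 was taken from the range of 2.98 to 13.7. RMA quantile-normalizes arrays, which hides changes of total RNA, and shrinks differences of dim probe sets. With several probe sets per gene, the brightest on average was used. The whole table of 12735 measured genes was fitted with limma 3.58.1 in R 4.3.3 (lmFit, then eBayes with trend, on 2 residual degrees of freedom), checked on simulated data. The simulated noise was independent between arrays and few genes were moved, so that check cannot vouch for the adjusted p-values of this design. The pairs within a cell state got a size rule of 2-fold and no test. The members, lists and naming rule were chosen with earlier results of these data known. The text names all members and list genes that passed or were among the 4 largest differences of their role. The few other list genes that did not pass were named after their values were seen. It also names up to 3 genes per marker list, and 3 nearest patterns per member with a range of at least 2-fold. More fibroblast and macrophage markers than that are named, chosen after their values were seen. Alternatives were the scaling, the filter, the variance trend, the probe set rule, the size rule and leaving out each array. Promoter windows are RefSeq's, build GRCm38.p6. Nothing says the samples came from separate animals, so p-values measure only the spread between these arrays. Arrays carry no counting depth, and their number limits the precision.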

Additional observations from a re-analysis of the deposited data

How the results depend on the processing

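Sostdc1, Bmp7, Grem1, Id1, Id2 and Id3 kept their direction and call in every alternative that tested them, and Bmp4 kept its direction only. Bmp2 also passed in each, but without the Firefly array (-1.31) all its values are below the floor, so this says nothing of its stability. Smad6 turned to -0.0271 after cyclic loess and -0.0754 after the upper quartile shift, and ran from -0.20 to 0.51 when 1 array was left out. The count of members that fell was 3 of 7 tested when the floor had to be reached on all 4 arrays, beside 17.6% of 9927 genes. Sostdc1 and Bmp2 were then not tested. After cyclic loess 5 of 9 tested members fell and 2 rose, beside 21.2% of all genes falling. After the upper quartile shift 5 of 10 fell and 2 rose, beside 26.5% of all genes falling. Requiring 2-fold as well left 12 called genes of the remaining BMP list and 2981 of all genes, in place of 21 and 5958. Leaving out 1 array gave 15 to 21 and 3058 to 5220, lowest without the Firefly array both times; the lone array of a state is then assumed to vary like the other pair. Upward shares of all calls were 52.4% after cyclic loess and 55.2% with no filter. At 1.5-fold 1 member was apart between the day 6 cultures and 2 between the lines, and 0 were 2-fold apart between the lines after cyclic loess. No paired analysis was possible because each group has 1 array and the labels carry no replicate numbers. Values under the floor have no order among themselves: those of Bmp2, Nog and Sostdc1 in iPSC, of Bmp2 in the culture labelled Sumo2 knockdown and of Nog in the Firefly culture.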
